A study of Mus musculus with 9 samples.

Results

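Glycolysis, pyruvate handling and the tricarboxylic acid (TCA) cycle were followed through the transcripts of 44 genes in mouse tissue taken from the paraventricular thalamus (PVT), a nucleus of the thalamic midline. The genes were taken by name from a table of 21899 gene rows. All 44 symbols were found, in 45 rows, because the aldolase gene Aldoa had a second row (ENSMUSG00000114515). All 45 rows passed the filter on low counts and were among the 14837 rows tested. The study measured RNA in wild-type (WT) mice after an intraperitoneal injection of lipopolysaccharide (LPS), a component of bacterial outer membranes that sets off innate immune responses, or of phosphate-buffered saline (PBS). There were 3 groups of 3 libraries: LPS 7d, taken 7 days after LPS, LPS 1d, taken 1 day after LPS, and PBS 1d, taken 1 day after PBS. Age, strain and dose were not stated in the labels.

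Glycolysis splits glucose into pyruvate in the cytosol. Pyruvate is then reduced to lactate and exported through monocarboxylate carriers, or enters mitochondria, where the pyruvate dehydrogenase complex turns it into the acetyl group that the TCA cycle oxidises. In the brain, astrocytes are the more glycolytic and lactate-exporting cells and neurons the more oxidative ones, and several steps have isozymes that differ between these cells. In immune cells exposed to LPS, a shift toward glycolysis and an interruption of the TCA cycle are well known, which gives the question of how these transcripts stood in whole tissue.

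Libraries held 13211422 to 17210526 gene counts. Within a gene, levels are in CPM, which are counts divided by the scaled library size, and in FPKM (per gene length and library total, as deposited) where genes are compared. Sex-linked and regional marker genes differed between the groups too. Summed over 4 Y-linked genes, the level was 90.5 to 102 CPM in LPS 7d and 81.5 to 85.2 CPM in LPS 1d, against 0 to 0.0588 CPM in PBS 1d. Summed over 6 markers of cerebellar neurons, it was 991 to 1030 CPM in LPS 7d, 131 to 142 CPM in LPS 1d and 160 to 167 CPM in PBS 1d, with all 6 markers higher in LPS 7d than in either other group. Calb1 made up most of the lower sums, with 115 to 125 CPM in LPS 1d and 142 to 150 CPM in PBS 1d. Gabra6 had 160 to 167 CPM in LPS 7d, against 0 to 0.061 CPM in LPS 1d and 0.059 to 0.136 CPM in PBS 1d. Cbln3 had 312 to 318 CPM in LPS 7d, against 0.374 to 1.035 CPM in LPS 1d and 0.409 to 0.57 CPM in PBS 1d. The 6 striatal markers summed to 406 to 413, 607 to 616 and 1039 to 1047 CPM in LPS 7d, LPS 1d and PBS 1d, and the 5 markers of the PVT and neighbouring midline thalamus, none of them at 0, to 397 to 413, 304 to 318 and 405 to 422 CPM. The similar PVT sums of LPS 7d and PBS 1d hide opposite changes, since Calb2 was 0.72 higher in LPS 7d, while Cck and Slc17a6 fell by 0.58 and 0.28. A PBS group of day 7 was not analysed here, and LPS 7d against PBS 1d therefore changes day and treatment at once. In such bulk tissue, fewer cells of a type and less RNA per cell cannot be told apart, and neither can LPS and the differences just listed. The labels do not say that replicates were separate animals, so p-values measure the spread between these samples. That spread was estimated with weight from all genes, and not from a gene's own libraries alone.

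In LPS 1d against PBS 1d, 8 of the 45 rows were higher, 17 were lower and 20 did not pass (edgeR quasi-likelihood test, Benjamini-Hochberg adjusted p under 0.05 over all genes). The 25 changed rows were 55.6% of the members, where 49.1% of all tested genes changed, so the overall share was near the background. The falls took up more of the members, at 37.8% against 24.2% of all genes, and the rises less, at 17.8% against 24.9%. The split ran the other way in LPS 7d against LPS 1d, with 23 rows higher, 7 lower and 15 not passing. There 66.7% of members changed, against 56.6% of all genes, and 51.1% were higher, against 27.5% of all genes, while 15.6% were lower, against 29.1%. For LPS 7d against PBS 1d, 16 rows were higher, 6 lower and 23 did not pass, so that 48.9% of members changed, against 35.6% of all genes (35.6% of members were higher, against 16.8% of all genes, and 13.3% lower, against 18.9%). Scaling by library size alone gave a split of 20 higher and 4 lower in LPS 7d against PBS 1d. The 3 comparisons share their groups in pairs, so a low level in LPS 1d enters both comparisons that contain it. Members whose libraries did not overlap numbered 30 in LPS 1d against PBS 1d (54.5% of all genes did not overlap), 34 in LPS 7d against LPS 1d (60.6%) and 26 in LPS 7d against PBS 1d (44.2%).

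Most of these changes were small. The median log2 fold change of the members was -0.06 in LPS 1d against PBS 1d (all genes -0.01), 0.10 in LPS 7d against LPS 1d (all genes 0.00) and 0.04 in LPS 7d against PBS 1d (all genes 0.00). Of the 25 members called in LPS 1d against PBS 1d, 13 moved by less than 0.2 on the log2 scale and 5 by at least 0.5. Of the 22 called in LPS 7d against PBS 1d, 12 moved by less than 0.2 and 4 by at least 0.5, and of the 30 called in LPS 7d against LPS 1d, 11 and 4 did. When the test asked for a fold above 1.2, a choice made after seeing the data, 7 members passed in LPS 1d against PBS 1d (17.6% of all genes passed), 5 in LPS 7d against PBS 1d (12.3%) and 8 in LPS 7d against LPS 1d (27%). Gapdh was the only member past a fold of 2 in either comparison with PBS 1d, and Pdk4 the only one in LPS 7d against LPS 1d. Of all genes, 5.2% in LPS 1d against PBS 1d, 3.65% in LPS 7d against PBS 1d and 7.68% in LPS 7d against LPS 1d passed that fold.

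**Figure D1:**
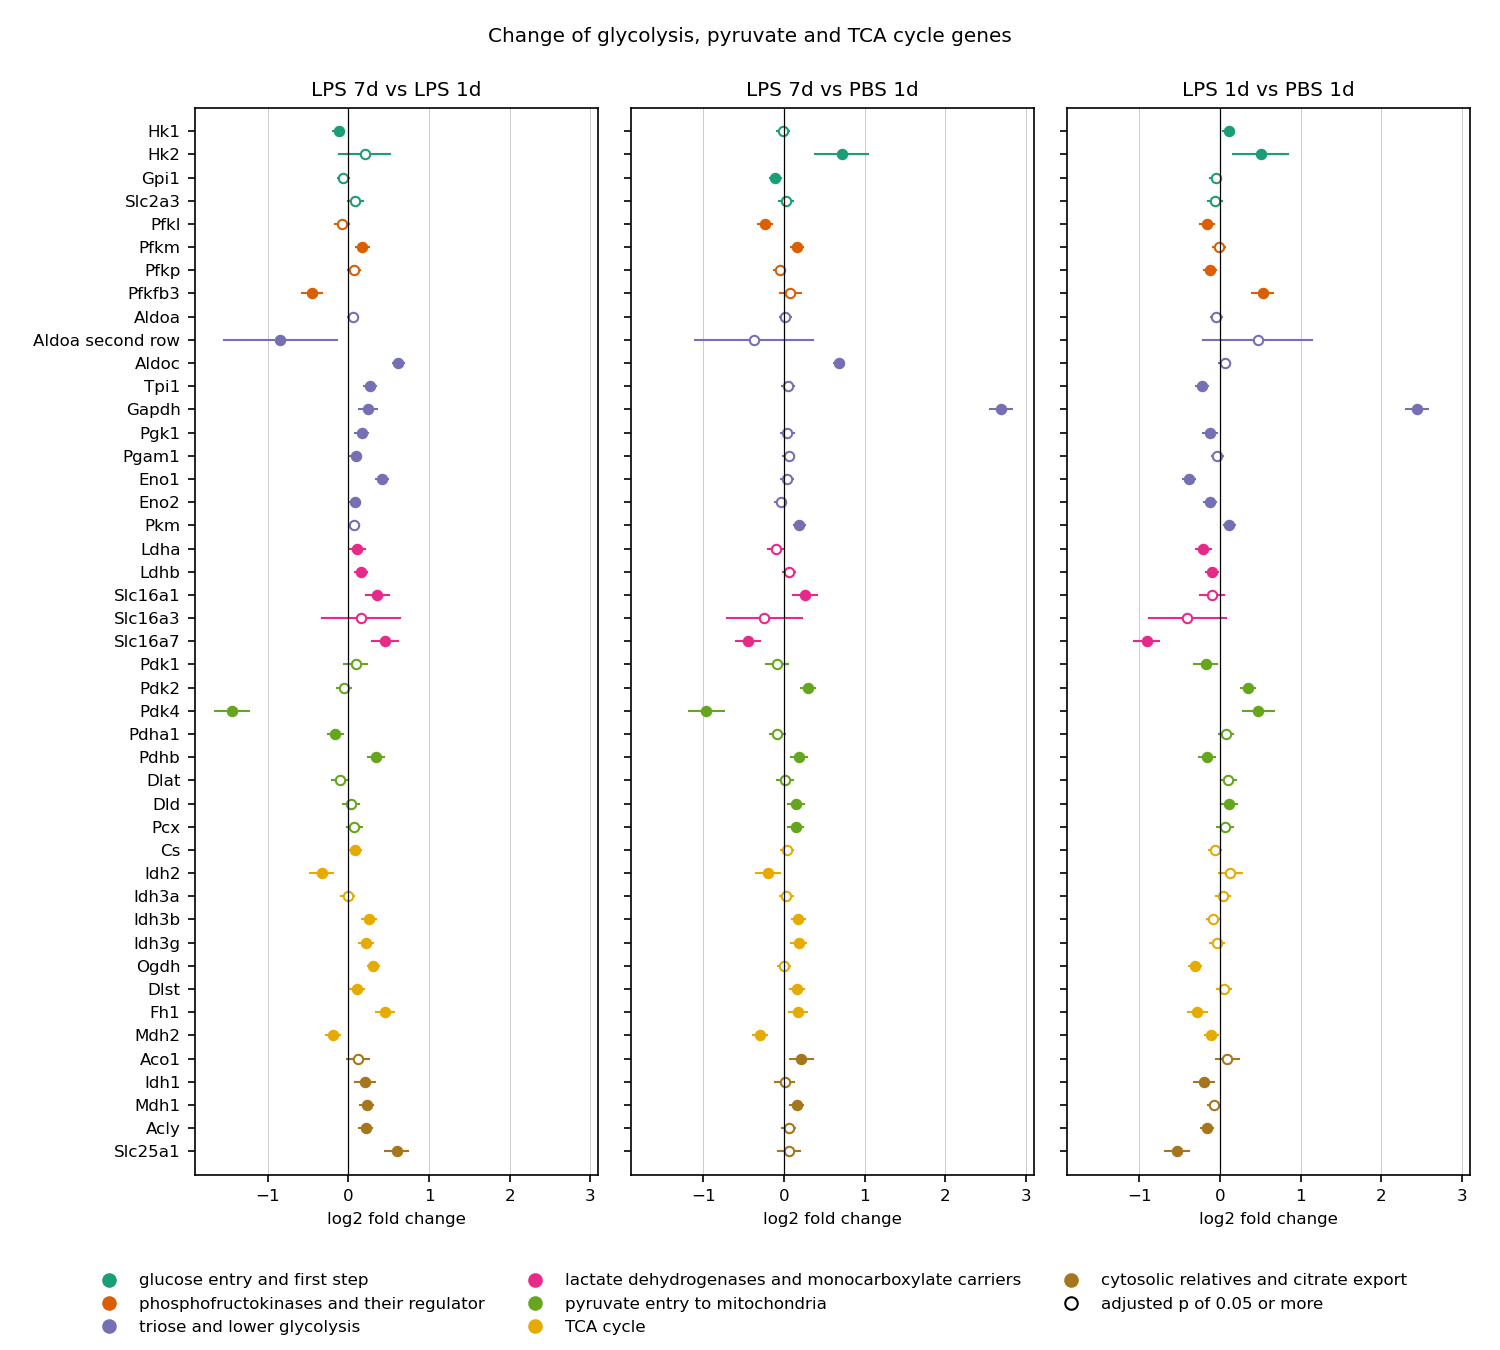
Log2 fold change (x axis) of each of the 45 member rows (y axis) in the 3 comparisons, coloured by role, with 95% confidence intervals from the edgeR fit. Filled points passed the adjusted p of 0.05 and open points did not. Gapdh lies far to the right in both comparisons with PBS 1d, at 2.69 and 2.44, and Pdk4 farthest to the left at 7 days, at -1.44 against LPS 1d and -0.96 against PBS 1d.

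Gapdh, glyceraldehyde-3-phosphate dehydrogenase, the enzyme that oxidises the triose and often a reference gene for expression, had the largest difference among the members. It lies on chr6:125138678-125143430 (GRCm39, ENSMUSG00000057666). Its level was 221, 276 and 300.4 CPM in the LPS 7d libraries and 229.7, 233 and 212 CPM in LPS 1d, against 43.4, 41.5 and 38.9 CPM in PBS 1d. All 6 LPS libraries lay far above all 3 PBS libraries, and the LPS groups overlapped each other. The log2 fold change was 2.44 ± 0.07 (SE) in LPS 1d against PBS 1d (5.44-fold, edgeR quasi-likelihood adjusted p = 4.47e-34) and 2.69 ± 0.07 in LPS 7d against PBS 1d (6.44-fold, adjusted p = 1.99e-36). Between LPS 7d and LPS 1d it was 0.24 ± 0.06 (edgeR adjusted p = 0.000221), a call that DESeq2 did not make (adjusted p = 0.0672). LPS 7d also had the wider spread, with an SD of 9.51 FPKM about a mean of 65.7 FPKM, against 53.4 ± 2.68 FPKM in LPS 1d and 9.92 ± 0.506 FPKM in PBS 1d (n = 3 each).

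Neither neighbouring step of the pathway rose in either comparison with PBS 1d. Per length, Gapdh ranked 15 of the 45 rows in LPS 7d and 16 in LPS 1d, against 36 in PBS 1d. Triosephosphate isomerase (Tpi1), the step before, stood at 183 ± 3.03 FPKM in LPS 7d, 145 ± 6.41 FPKM in LPS 1d and 172 ± 6.61 FPKM in PBS 1d. Phosphoglycerate kinase (Pgk1), the step after, stood at 125 ± 6.62, 107 ± 4.32 and 118 ± 5.22 FPKM in LPS 7d, LPS 1d and PBS 1d. The level printed for Gapdh was thus below both of its neighbours in every group, and in PBS 1d Tpi1 and Pgk1 stood at 17.3 and 11.9 times its FPKM. The gene next to it on the chromosome, Iffo1, which overlaps the Gapdh row on the other strand, had 65.0 to 66.9 CPM in LPS 7d and 59.3 to 62.3 CPM in LPS 1d, against 61.4 to 70.6 CPM in PBS 1d. The other neighbour examined, Ncapd2, had 30.2 to 33.9 CPM in LPS 7d and 23.5 to 25.9 CPM in LPS 1d, against 19.3 to 22.9 CPM in PBS 1d. Ncapd2 was thus higher in both comparisons with PBS 1d, by 0.65 ± 0.08 in LPS 7d and by 0.27 ± 0.09 in LPS 1d (edgeR adjusted p = 6.57e-09 and 0.00776).

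**Figure D2:**
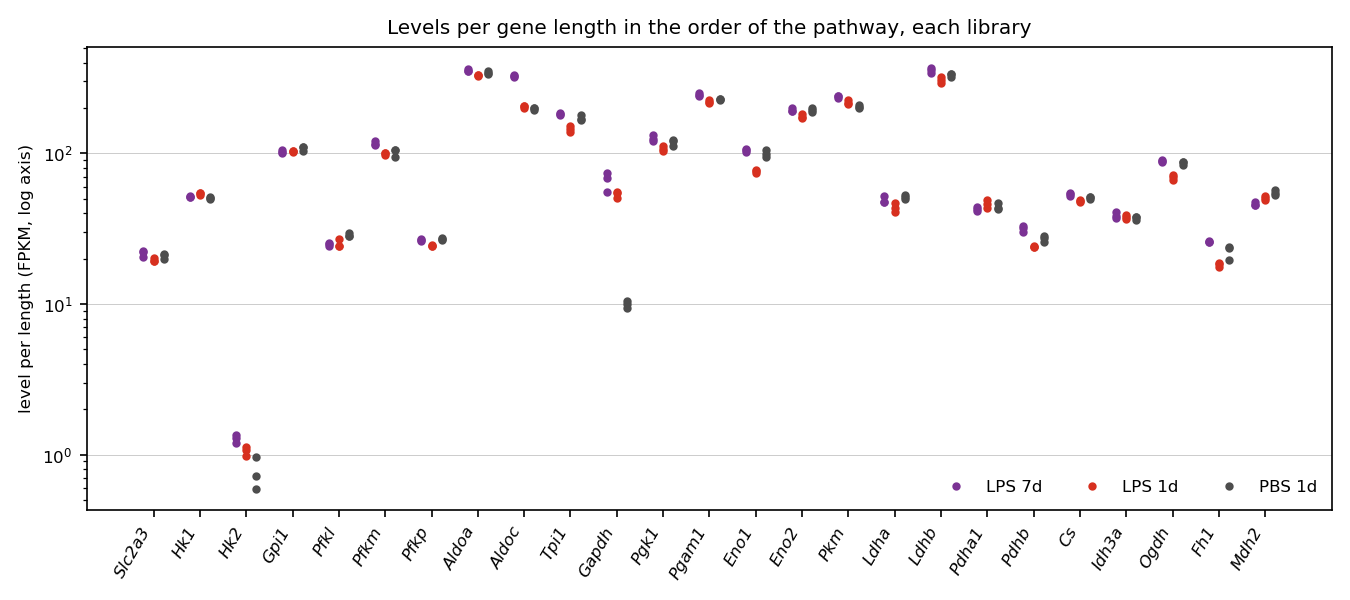
Level per gene length (FPKM, log axis) of 25 members, ordered from glucose uptake to the TCA cycle, with 1 point for each library of LPS 7d, LPS 1d and PBS 1d. Gapdh in PBS 1d, at a mean of 9.92 FPKM, lies well below the enzymes on either side of it, and Hk2 is the lowest of those shown.

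Gapdh is also the member with the most near-identical copies, and its sequence is shown for that reason. In the GENCODE annotation of GRCm38, 78 other genes hold at least 300 bases that are at least 95% identical to its coding sequence of 1077 bases, and 74 of them are pseudogenes. Of the 978 stretches of 100 bases in that coding sequence, 93.9% occur unchanged in another gene, and only 60 do not. Bases 820 to 919 are given for Gapdh on chromosome 6, for a processed pseudogene on the Y chromosome, for a pseudogene on chromosome 7, and for Gapdhs, the sperm-type gene on chromosome 7. Capitals mark bases that differ from Gapdh.
Gapdh: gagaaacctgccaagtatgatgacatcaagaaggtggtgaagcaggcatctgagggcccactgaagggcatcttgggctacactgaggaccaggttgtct
Gapdh-ps15: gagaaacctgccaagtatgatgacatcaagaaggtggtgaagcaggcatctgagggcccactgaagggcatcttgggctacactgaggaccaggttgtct
Gm6669: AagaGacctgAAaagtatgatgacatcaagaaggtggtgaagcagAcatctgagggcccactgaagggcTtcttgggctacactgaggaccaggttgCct
Gapdhs: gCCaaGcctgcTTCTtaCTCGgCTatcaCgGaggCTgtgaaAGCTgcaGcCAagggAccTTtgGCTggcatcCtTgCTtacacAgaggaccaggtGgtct
The Y-chromosome copy has 0 mismatches over these bases, Gm6669 has 7 and Gapdhs has 36, and 40 other genes hold the stretch unchanged. Of the 78 copies, only 1 lies on the Y chromosome. Only 3 of the 78 copies had a row in the deposited table, with 0 to 5 counts in any library. How reads that fit several places were counted is not stated in the labels. The Y-linked genes split the libraries in the same way as Gapdh, and their part in the Gapdh result was not tested.

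Of the other members, 9 had at least 1 such copy (Gpi1, Tpi1, Pgk1, Pgam1, Eno1, Pkm, Ldha, Ldhb and Pdhb), and their values are uncertain to that extent, above all those of Pgk1 and Pgam1, where 100% of the 100-base stretches occur elsewhere, and of Eno1, with 69.3%. The remaining 35 rows had none. A further source of doubt is overlap: 12 rows share bases with a gene on the other strand (those of Pfkm, Pfkp, Tpi1, Gapdh, Slc16a3, Pdha1, Pcx, Idh3b, Fh1 and Mdh1 and both of Aldoa), and whether the counting used strand is not stated in the labels.

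Among the genes of glucose entry, the hexokinase Hk2 was higher after LPS at both times. Its level was 7.42, 7.84 and 6.98 CPM in LPS 7d and 6.55, 6.79 and 5.96 CPM in LPS 1d, against 4.35, 3.54 and 5.73 CPM in PBS 1d. The 3 groups did not overlap, though LPS 1d came close to both other groups. LPS 7d against LPS 1d did not pass (0.20 ± 0.16, edgeR adjusted p = 0.27). The log2 fold change was 0.71 ± 0.16 in LPS 7d against PBS 1d (edgeR adjusted p = 0.0004) and 0.51 ± 0.17 in LPS 1d against PBS 1d (edgeR adjusted p = 0.0108). The call in LPS 1d was lost without PBS 1d replicate 2 (0.36, edgeR adjusted p = 0.102). Hk1, the hexokinase that carries most of the transcript in brain, moved little: it had 423 to 435 CPM in LPS 7d, 458 to 475 CPM in LPS 1d and 427 to 442 CPM in PBS 1d, and rose by 0.11 in LPS 1d against PBS 1d and fell by 0.12 in LPS 7d against LPS 1d. That fall was not called when libraries were scaled by size alone (edgeR adjusted p = 0.111). The neuronal glucose transporter gene Slc2a3 passed in none of the 3 comparisons (log2 fold changes -0.06 to 0.09). Gpi1, which turns glucose phosphate into fructose phosphate, fell by 0.11 ± 0.03 in LPS 7d against PBS 1d (edgeR adjusted p = 0.00902), and lost that call without LPS 7d replicate 1 or with scaling by library size alone (edgeR adjusted p 0.0505 to 0.0895).

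At the phosphofructokinase step, the committed step of glycolysis, the regulator and the enzymes differed. Pfkfb3 makes the sugar bisphosphate that activates phosphofructokinase. Its level was 48.3, 45.9 and 48.9 CPM in LPS 7d, 63.0, 65.9 and 66.6 CPM in LPS 1d and 49.2, 40.4 and 45.7 CPM in PBS 1d. Every LPS 1d library was above every library of the other groups, which overlapped each other. It rose by 0.53 ± 0.06 in LPS 1d against PBS 1d (edgeR adjusted p = 1.03e-09) and fell by 0.45 ± 0.06 in LPS 7d against LPS 1d (edgeR adjusted p = 2.36e-08). Against PBS 1d, the log2 fold change in LPS 7d was 0.08 ± 0.06 (edgeR adjusted p = 0.373). Of the 3 enzymes, the liver-type Pfkl fell in both comparisons with PBS 1d, by 0.16 in LPS 1d and by 0.24 in LPS 7d. The platelet-type Pfkp fell by 0.13 in LPS 1d against PBS 1d. The muscle-type Pfkm, the highest of them per length (117 ± 4.08 FPKM in LPS 7d, 99.4 ± 1.19 in LPS 1d and 102 ± 5.68 in PBS 1d), rose by 0.16 in LPS 7d against PBS 1d and by 0.17 in LPS 7d against LPS 1d.

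From aldolase to pyruvate kinase, 7 of 10 rows were higher and 1 was lower in LPS 7d against LPS 1d. In LPS 1d against PBS 1d 2 rose and 4 fell, and in LPS 7d against PBS 1d 3 rose and none fell. The shares of all genes were 27.5% higher and 29.1% lower, 24.9% and 24.2%, and 16.8% and 18.9% in these comparisons. The fructose-bisphosphate aldolase Aldoc, known in brain from astrocytes and from cerebellar Purkinje cells, had the largest rise among those with no copy elsewhere. Its level was 1029, 1066 and 1032 CPM in LPS 7d and 689, 666 and 680.1 CPM in LPS 1d, against 638, 657 and 657 CPM in PBS 1d. The LPS 7d libraries stood apart, and the other two groups were close to each other. The log2 fold change was 0.68 ± 0.03 in LPS 7d against PBS 1d (edgeR adjusted p = 1.82e-23) and 0.62 ± 0.03 in LPS 7d against LPS 1d (edgeR adjusted p = 4.93e-22), while in LPS 1d against PBS 1d it was 0.06 ± 0.03 (edgeR adjusted p = 0.131). Its partner Aldoa, with 1001 to 1032 CPM in LPS 7d, 965 to 979 CPM in LPS 1d and 975.4 to 1025 CPM in PBS 1d, passed in none of the 3 comparisons. The 6 cerebellar markers rose with Aldoc in the LPS 7d libraries, as given above. Of 7 astrocyte markers, 5 were higher and 1 lower in LPS 7d against PBS 1d, and their summed level was 3277 to 3325 CPM in LPS 7d, 3733 to 3772 CPM in LPS 1d and 3118 to 3181 CPM in PBS 1d. The part of either in the Aldoc result was not tested.

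Eno1 and Tpi1 were low at 1 day. The enolase Eno1, which makes phosphoenolpyruvate, had 556, 558 and 542 CPM in LPS 7d, 422, 415 and 404 CPM in LPS 1d and 517, 564 and 534 CPM in PBS 1d. The LPS 1d libraries lay below all 6 others, and LPS 7d and PBS 1d overlapped. It fell by 0.38 ± 0.04 in LPS 1d against PBS 1d (edgeR adjusted p = 1.52e-12) and was higher by 0.42 ± 0.04 in LPS 7d against LPS 1d (edgeR adjusted p = 3.14e-14). Eno1b, a gene 99.4% identical to the coding sequence of Eno1, had 36.5, 38.6 and 39.3 CPM in LPS 7d and 24.0, 26.5 and 25.5 CPM in LPS 1d, against 9.46, 9.18 and 8.45 CPM in PBS 1d. The level counted for Eno1b was higher in both LPS groups than in PBS 1d, while that for Eno1 was lower in LPS 1d than in PBS 1d, and how reads were divided between them is not stated in the labels. Tpi1 had 489.9, 501 and 487 CPM in LPS 7d, 426, 406 and 390.2 CPM in LPS 1d and 465, 495 and 466 CPM in PBS 1d. It fell by 0.22 ± 0.04 in LPS 1d against PBS 1d (edgeR adjusted p = 2e-06) and was higher by 0.27 ± 0.04 in LPS 7d against LPS 1d (edgeR adjusted p = 1.15e-08).

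The remaining enzymes of this stretch, the second Aldoa row aside, differed by at most 0.19 on the log2 scale. Pyruvate kinase (Pkm), which makes pyruvate, rose by 0.12 ± 0.03 in LPS 1d (edgeR adjusted p = 0.00305) and by 0.19 ± 0.03 in LPS 7d (edgeR adjusted p = 7.84e-06), both against PBS 1d. The neuronal enolase Eno2 fell by 0.12 in LPS 1d against PBS 1d and was 0.08 higher in LPS 7d against LPS 1d. Pgk1 fell by 0.12 in LPS 1d against PBS 1d and was 0.17 higher in LPS 7d against LPS 1d, and the mutase Pgam1 was 0.09 higher in LPS 7d against LPS 1d. Some of these calls rest on single libraries. That of Pgk1 in LPS 1d was lost without PBS 1d replicate 2 or 3 or LPS 1d replicate 2 or 3 (edgeR adjusted p 0.0511 to 0.0828). Those of Pgam1 and Eno2 in LPS 7d against LPS 1d were lost without LPS 1d replicate 2 or 3, and that of Eno2 also without LPS 7d replicate 1 or with a replicate block in the fit (edgeR adjusted p up to 0.0873 for Pgam1 and 0.199 for Eno2). The second Aldoa row, which stayed between 0.802 and 1.87 CPM in the 9 libraries, was called lower in LPS 7d against LPS 1d (edgeR adjusted p = 0.0349), and this was lost without any of the LPS 7d libraries, without LPS 1d replicate 2 or 3 and in DESeq2.

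Around lactate, 3 of 5 members fell in LPS 1d against PBS 1d and none rose, and in LPS 7d against LPS 1d 4 were higher and none lower. Over all genes, 24.2% fell and 24.9% rose in the first comparison, and 27.5% were higher and 29.1% lower in the second. Slc16a7 encodes the high-affinity monocarboxylate carrier of neurons. Its level was 35.0, 33.9 and 32.1 CPM in LPS 7d and 26.2, 24.0 and 23.6 CPM in LPS 1d, against 46.4, 41.0 and 50.4 CPM in PBS 1d. The 3 groups did not overlap in any pair. It fell by 0.90 ± 0.08 in LPS 1d against PBS 1d (edgeR adjusted p = 4.37e-14), the largest fall among the members there, and by 0.45 ± 0.07 in LPS 7d against PBS 1d (edgeR adjusted p = 1.62e-06). Against LPS 1d, it was 0.46 ± 0.08 higher in LPS 7d (edgeR adjusted p = 2.76e-06). Slc16a1, the carrier of endothelium and glia, had 39.4 to 44.3 CPM in LPS 7d and 30.8 to 34.5 CPM in LPS 1d, against 33.6 to 38.7 CPM in PBS 1d. It rose by 0.26 ± 0.07 in LPS 7d against PBS 1d (edgeR adjusted p = 0.00331) and was 0.36 ± 0.07 higher in LPS 7d than in LPS 1d (edgeR adjusted p = 3.64e-05). The lactate exporter gene Slc16a3 stayed between 1.85 and 3.67 CPM and passed in no comparison.

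Both lactate dehydrogenase genes were called lower in LPS 1d against PBS 1d. Ldha, the subunit that favours making lactate, had 167, 153 and 156 CPM in LPS 7d, 159, 146 and 138 CPM in LPS 1d and 165, 175 and 169.6 CPM in PBS 1d. The LPS 1d libraries lay below PBS 1d and overlapped LPS 7d. It fell by 0.21 ± 0.05 in LPS 1d against PBS 1d (edgeR adjusted p = 0.000201) and was 0.11 ± 0.05 higher in LPS 7d against LPS 1d (edgeR adjusted p = 0.0455). Ldhb, the subunit that favours using lactate, fell by 0.10 ± 0.04 in LPS 1d against PBS 1d (edgeR adjusted p = 0.031) and was 0.16 ± 0.04 higher in LPS 7d against LPS 1d (edgeR adjusted p = 0.000327). The Ldhb call in LPS 1d was lost without PBS 1d replicate 1 or 2 or LPS 1d replicate 2 or 3, and the Ldha call in LPS 7d against LPS 1d without LPS 1d replicate 2 or 3 or LPS 7d replicate 1 (edgeR adjusted p up to 0.256 and 0.337). That Ldha call was also lost with a replicate block in the fit and in DESeq2.

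At the entry of pyruvate into mitochondria, the kinase gene Pdk4 had the largest change in each of the 3 comparisons. Pyruvate dehydrogenase kinases switch the pyruvate dehydrogenase complex off, and Pdk4 is the form known to respond to fasting and glucocorticoids. Its level was 9.81, 12.03 and 12.9 CPM in LPS 7d, 27.98, 31.0 and 34.9 CPM in LPS 1d and 19.3, 25.9 and 22.7 CPM in PBS 1d. The 3 groups did not overlap, with LPS 1d the highest and LPS 7d the lowest. Pdk4 rose by 0.48 ± 0.10 in LPS 1d against PBS 1d (edgeR adjusted p = 4.53e-05), fell by 0.96 ± 0.11 in LPS 7d against PBS 1d (edgeR adjusted p = 1.35e-10) and fell by 1.44 ± 0.10 in LPS 7d against LPS 1d (edgeR adjusted p = 4.6e-17). Pdk2, the most abundant of the 3 kinases per length, had 154, 164 and 164 CPM in LPS 7d and 172, 159.8 and 169 CPM in LPS 1d, against 137, 127 and 128 CPM in PBS 1d. Both LPS groups lay above PBS 1d and overlapped each other. It rose by 0.35 ± 0.05 in LPS 1d (edgeR adjusted p = 6.74e-09) and by 0.30 ± 0.04 in LPS 7d (edgeR adjusted p = 3.02e-07), both against PBS 1d. Pdk1 fell by 0.18 ± 0.07 in LPS 1d against PBS 1d (edgeR adjusted p = 0.0305), a call lost without PBS 1d replicate 1 or LPS 1d replicate 1 or 3 and in DESeq2 (adjusted p 0.0593 to 0.152).

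The subunits of the pyruvate dehydrogenase complex did not move together. Pdhb, of the first enzyme, had 123, 122 and 114 CPM in LPS 7d, 94.5, 94.6 and 93.7 CPM in LPS 1d and 100.4, 109.5 and 107 CPM in PBS 1d. The 3 groups did not overlap, and it fell by 0.16 ± 0.05 in LPS 1d against PBS 1d and rose by 0.18 ± 0.05 in LPS 7d against PBS 1d (edgeR adjusted p = 0.00485 and 0.00182). Its partner Pdha1, on the X chromosome, was lower only in LPS 7d against LPS 1d, by 0.16 ± 0.05 (edgeR adjusted p = 0.00208). Dlat, the acetyltransferase, passed in no comparison. Dld, the dehydrogenase shared with other complexes, rose by 0.11 in LPS 1d and by 0.15 in LPS 7d against PBS 1d. The Dld call at 1 day (edgeR adjusted p = 0.0479) was lost in 13 alternative fits, among them DESeq2 and those without PBS 1d replicate 1 or 3, any LPS 1d library, or LPS 7d replicate 2 or 3 (adjusted p up to 0.244), and that at 7 days without PBS 1d replicate 1 (edgeR adjusted p = 0.0969). Pcx, pyruvate carboxylase, the glial enzyme that refills the cycle, rose by 0.14 ± 0.05 in LPS 7d against PBS 1d (edgeR adjusted p = 0.0152), which was lost without PBS 1d replicate 2 or LPS 7d replicate 2 or 3 (edgeR adjusted p 0.0708 to 0.112).

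**Figure D3:**
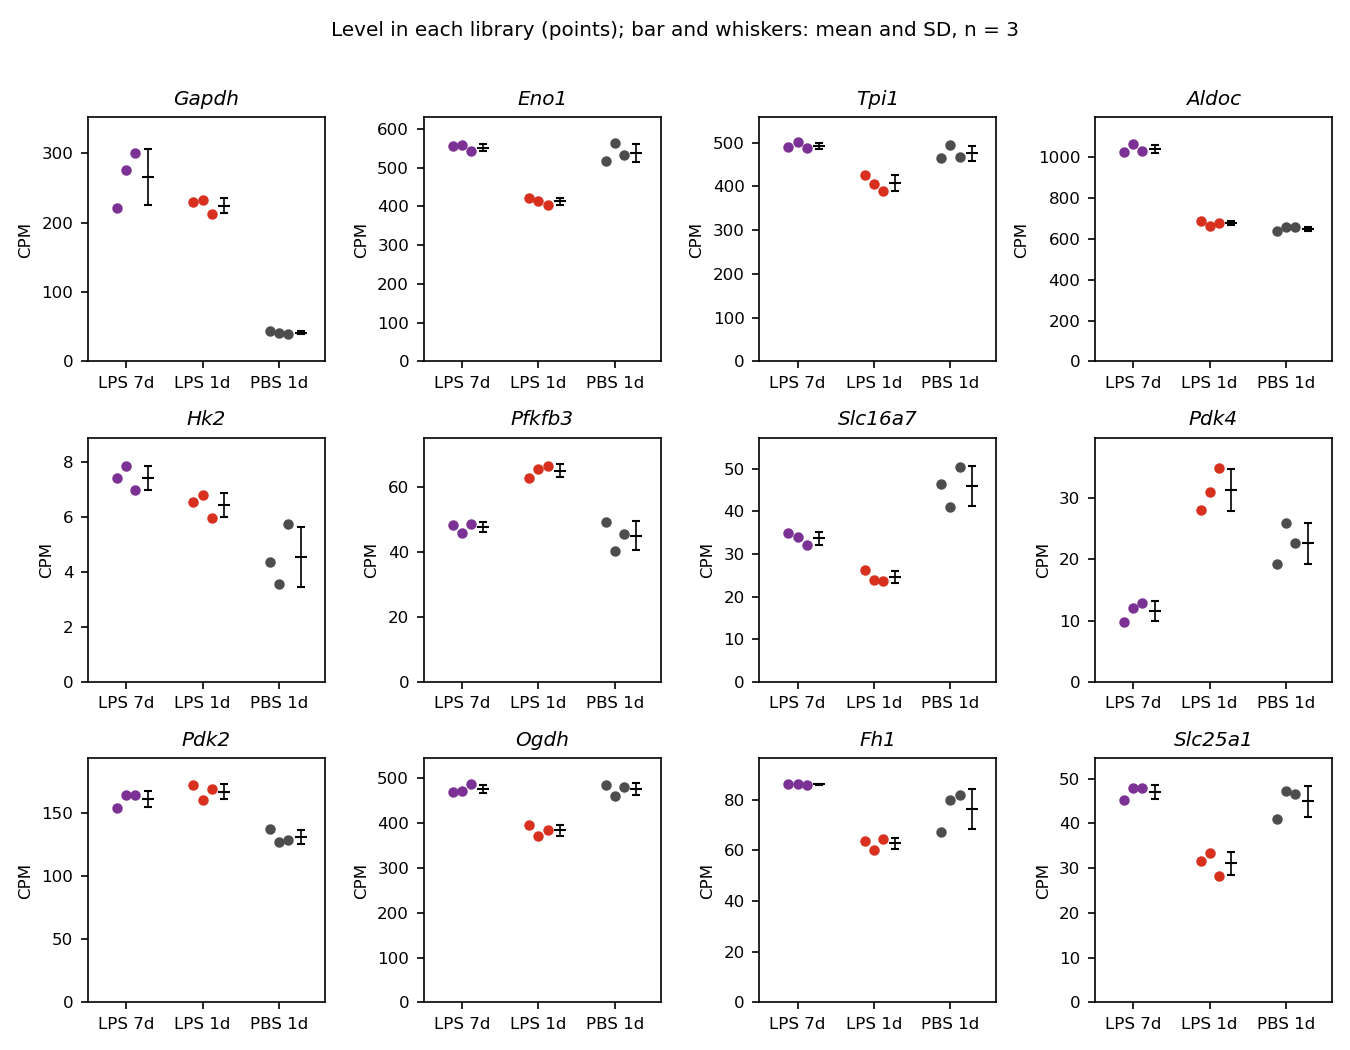
CPM (y axis, from 0) of 12 members in each library of LPS 7d, LPS 1d and PBS 1d, with the mean and SD of each group (n = 3) as a bar with whiskers. Eno1, Tpi1, Ogdh, Fh1, Slc16a7 and Slc25a1 are lowest in LPS 1d, Pfkfb3 and Pdk4 are highest there, and Aldoc stands apart in LPS 7d.

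Of 9 members in the TCA cycle itself, 3 fell and none rose in LPS 1d against PBS 1d, and 6 were higher and 2 lower in LPS 7d against LPS 1d. Against PBS 1d, 4 rose and 2 fell in LPS 7d. Of all genes, 24.9% rose and 24.2% fell in LPS 1d against PBS 1d. In LPS 7d against LPS 1d, 27.5% of all genes were higher and 29.1% lower. In LPS 7d against PBS 1d, 16.8% rose and 18.9% fell. The counts of falls were thus near the background. Ogdh, the first subunit of the oxoglutarate dehydrogenase complex, had 468, 472 and 487 CPM in LPS 7d, 396, 371 and 384 CPM in LPS 1d and 485, 461 and 479.5 CPM in PBS 1d. The LPS 1d libraries were below all others, and LPS 7d and PBS 1d overlapped. It fell by 0.31 ± 0.04 in LPS 1d against PBS 1d (edgeR adjusted p = 5.95e-10) and was 0.31 ± 0.04 higher in LPS 7d against LPS 1d (edgeR adjusted p = 2.56e-10). Fh1, fumarase, had 86.2, 86.1 and 86.0 CPM in LPS 7d, 63.7, 60.3 and 64.5 CPM in LPS 1d and 67.5, 79.7 and 81.8 CPM in PBS 1d. The groups did not overlap, with PBS 1d the most spread and PBS 1d replicate 1 close to the LPS 1d libraries. Fh1 fell by 0.28 ± 0.06 in LPS 1d against PBS 1d (edgeR adjusted p = 9e-05) and was 0.45 ± 0.06 higher in LPS 7d against LPS 1d (edgeR adjusted p = 2.54e-09). Its rise of 0.18 ± 0.06 in LPS 7d against PBS 1d (edgeR adjusted p = 0.0113) was lost without PBS 1d replicate 1 (0.09, edgeR adjusted p = 0.232).

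Mitochondrial malate dehydrogenase and one isocitrate dehydrogenase ran against the rest at 7 days. Mdh2, which closes the cycle, had 156, 159.6 and 166 CPM in LPS 7d and 178, 190.0 and 182 CPM in LPS 1d, against 197, 205 and 190.0 CPM in PBS 1d. The LPS 7d libraries lay below all others. Mdh2 fell by 0.30 ± 0.04 in LPS 7d against PBS 1d (edgeR adjusted p = 8.01e-08) and by 0.19 ± 0.04 in LPS 7d against LPS 1d (edgeR adjusted p = 0.000123). Its fall of 0.10 ± 0.04 in LPS 1d against PBS 1d (edgeR adjusted p = 0.0388) was lost without PBS 1d replicate 1 or 2 or LPS 1d replicate 1 or 3 (edgeR adjusted p 0.0557 to 0.171). The NADP-dependent Idh2 fell by 0.33 ± 0.07 in LPS 7d against LPS 1d (edgeR adjusted p = 0.000115) and by 0.20 ± 0.07 against PBS 1d (edgeR adjusted p = 0.026). The second of these Idh2 calls was lost without PBS 1d replicate 2 or 3 or LPS 7d replicate 1 or 3, with scaling by library size alone and in DESeq2 (adjusted p 0.062 to 0.106).

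The subunits of the NAD-dependent isocitrate dehydrogenase also differed. Idh3b and Idh3g, the beta and gamma subunits, each rose by 0.18 in LPS 7d against PBS 1d (edgeR adjusted p = 0.000383 and 0.00102) and by 0.26 and 0.22 against LPS 1d. The catalytic Idh3a had 186 to 202 CPM in LPS 7d, 188 to 201 CPM in LPS 1d and 184 to 193 CPM in PBS 1d, and passed in no comparison. Citrate synthase (Cs), the entry of the cycle, was 0.09 ± 0.04 higher in LPS 7d against LPS 1d (edgeR adjusted p = 0.0419). Dlst, the second subunit of the oxoglutarate dehydrogenase complex, was higher by 0.10 in LPS 7d against LPS 1d and by 0.16 ± 0.04 against PBS 1d (edgeR adjusted p = 0.0032). The Cs and Dlst calls against LPS 1d were lost without LPS 1d replicate 2 or 3 or LPS 7d replicate 1 or 2, and with a replicate block in the fit (edgeR adjusted p up to 0.149 and 0.212). Unlike Ogdh, Dlst had no called fall in LPS 1d against PBS 1d, with a log2 fold change of 0.05 ± 0.04.

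Of the 5 members that export citrate or act in the cytosol beside the cycle, 3 fell, none rose and 2 did not pass in LPS 1d against PBS 1d. Of all genes, 24.9% rose and 24.2% fell there. Slc25a1, the citrate carrier of the inner mitochondrial membrane, had 45.2, 47.9 and 47.9 CPM in LPS 7d, 31.7, 33.3 and 28.2 CPM in LPS 1d and 41.0, 47.3 and 46.6 CPM in PBS 1d. The LPS 1d libraries were below all 6 others, and LPS 7d and PBS 1d overlapped. It fell by 0.53 ± 0.07 in LPS 1d against PBS 1d (edgeR adjusted p = 2.44e-08) and was 0.60 ± 0.07 higher in LPS 7d against LPS 1d (edgeR adjusted p = 5.45e-10). Acly, which splits exported citrate into the acetyl units used for lipid synthesis, fell by 0.16 ± 0.04 in LPS 1d against PBS 1d (edgeR adjusted p = 0.000694) and was 0.21 ± 0.04 higher in LPS 7d against LPS 1d (edgeR adjusted p = 5.36e-06). Cytosolic Idh1 fell by 0.20 ± 0.06 and was 0.20 ± 0.06 higher in the same comparisons (edgeR adjusted p = 0.00738 and 0.00418).

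Cytosolic malate dehydrogenase, Mdh1, went the other way from Mdh2 at 7 days. It had 451, 445 and 434 CPM in LPS 7d and 395, 382 and 362 CPM in LPS 1d, against 379, 412 and 404 CPM in PBS 1d. It rose by 0.15 ± 0.04 in LPS 7d against PBS 1d (edgeR adjusted p = 0.000872) and by 0.23 ± 0.04 against LPS 1d (edgeR adjusted p = 1.39e-06). The cytosolic aconitase Aco1 rose by 0.21 ± 0.07 in LPS 7d against PBS 1d (edgeR adjusted p = 0.0127), lost without PBS 1d replicate 1 or LPS 7d replicate 1 (edgeR adjusted p 0.0546 to 0.0867). Myelin genes shared the pattern of the members that were low in LPS 1d and higher at 7 days in part: of 6 oligodendrocyte markers, 4 were lower and 1 higher in LPS 1d against PBS 1d, and 6 were higher in LPS 7d than in either other group. Their summed level was 9292 to 9919 CPM in LPS 7d and 6924 to 6954 CPM in LPS 1d, against 6933 to 7295 CPM in PBS 1d, and their part in the members' results was not tested.

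Isozyme shares were taken from FPKM, as the percentage of 1 member in the sum over its isozymes. Aldoc made up 47.8 ± 0.825% of Aldoa and Aldoc in LPS 7d, 38.3 ± 0.438% in LPS 1d and 36.7 ± 0.757% in PBS 1d (SD, n = 3). Eno1 made up 35.1 ± 0.542%, 30.0 ± 0.367% and 33.9 ± 1.14% of Eno1 and Eno2 in LPS 7d, LPS 1d and PBS 1d. Both shares differed between LPS 7d and LPS 1d with no overlap of libraries, by 9.48 points for Aldoc and 5.10 points for Eno1. Pdk4 made up 5.55 ± 0.554% of Pdk1, Pdk2 and Pdk4 in LPS 7d, 13.4 ± 1.37% in LPS 1d and 12.1 ± 1.95% in PBS 1d. Slc16a7 made up 21.9 ± 0.172% of the 3 monocarboxylate carriers in LPS 7d and 20.7 ± 1.08% in LPS 1d, against 30.9 ± 3.40% in PBS 1d. The Slc16a7 share was thus lower in both LPS groups than in PBS 1d. Hk2 held a small share of the hexokinases throughout, at 2.40 ± 0.147%, 1.93 ± 0.146% and 1.48 ± 0.367% in LPS 7d, LPS 1d and PBS 1d, and the Ldha share of the lactate dehydrogenases overlapped between all groups (12.1 ± 0.992%, 12.5 ± 0.260% and 13.4 ± 0.504%). With 3 libraries against 3, the exact two-sided permutation test cannot give a p below 0.1. That value was reached for each difference without overlap, among them all those named for Aldoc, Pdk4 in LPS 7d and Slc16a7 against PBS 1d, and the exact p adjusted over the 33 comparisons was then 0.15.

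**Figure D4:**
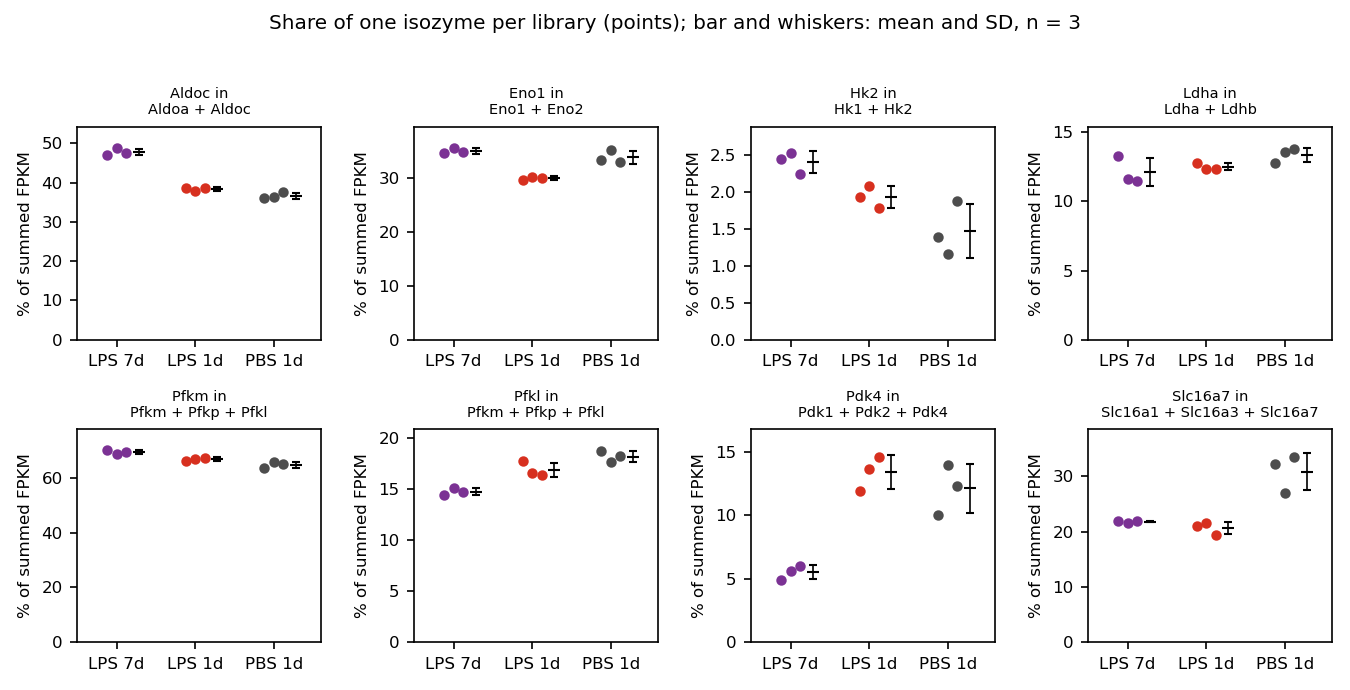
Share (y axis, percent of summed FPKM, from 0) of 1 isozyme among its relatives in each library of LPS 7d, LPS 1d and PBS 1d, with the mean and SD of each group (n = 3). The Aldoc share is higher in LPS 7d, the Pdk4 share lower there, the Eno1 share lower in LPS 1d, and the Slc16a7 share lower in both LPS groups than in PBS 1d.

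A further 56 genes of the same pathways were listed, of which 50 were tested. In LPS 1d against PBS 1d, 9 (18%) rose and 12 (24%) fell, with a median log2 fold change of -0.05, where 24.9% of all genes rose and 24.2% fell. In LPS 7d against LPS 1d 23 (46%) were higher and 11 (22%) lower (median 0.09), where 27.5% and 29.1% of all genes were. In LPS 7d against PBS 1d 12 (24%) rose and 7 (14%) fell (median 0.05), where 16.8% and 18.9% of all genes did. The share that fell at 1 day was thus that of the background. Those called with a log2 fold change of at least 0.5 were few. Slc25a13, a mitochondrial aspartate-glutamate carrier, rose by 0.92 ± 0.16 in LPS 1d against PBS 1d (means of 9.24 CPM in LPS 1d and 4.88 CPM in PBS 1d, edgeR adjusted p = 2.96e-06). In that comparison Gapdhs fell by 0.66 ± 0.17 (edgeR adjusted p = 0.00155). Gapdhs, the close relative of Gapdh, thus moved opposite to it in LPS 1d against PBS 1d. In LPS 7d against PBS 1d, Gapdhs did not pass (0.23 ± 0.16, edgeR adjusted p = 0.269). Both genes were higher in LPS 7d against LPS 1d.

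At 7 days, Me1, the cytosolic malic enzyme that yields NADPH, rose by 0.75 ± 0.06 against PBS 1d (68.0 ± 3.39 CPM in LPS 7d, against 40.6 ± 3.13 CPM in PBS 1d, edgeR adjusted p = 2.4e-14). Pdp1, the phosphatase that switches the pyruvate dehydrogenase complex back on, had 139 ± 5.96 CPM in LPS 7d, 203 ± 1.74 CPM in LPS 1d and 199 ± 8.11 CPM in PBS 1d. It fell by 0.51 ± 0.04 in LPS 7d against PBS 1d and by 0.55 ± 0.04 against LPS 1d (edgeR adjusted p = 1.29e-14 and 9.47e-16). The transcripts of an inhibitor (Pdk4) and of an activator (Pdp1) of the complex were thus both lower in LPS 7d. Pdk2, the most abundant of the 3 inhibiting kinases per length, was 0.30 higher in LPS 7d against PBS 1d, as given above. Hkdc1, a hexokinase domain gene, fell by 0.55 ± 0.19 against PBS 1d and by 0.77 ± 0.18 against LPS 1d (edgeR adjusted p = 0.0168 and 0.000316), and its LPS 7d and PBS 1d libraries overlapped. In LPS 7d against LPS 1d, Gapdhs was also 0.89 ± 0.17 higher, while Slc25a13 and the muscle mutase Pgam2 were lower, with log2 fold changes of -0.72 ± 0.15 and -0.62 ± 0.14 (edgeR adjusted p = 6.51e-05 and 0.000187).

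Promoters were compared because several members are known targets of the hypoxia-inducible factor, whose response element has the core ACGTG or GCGTG. Only ACGTG, called the core below, was searched. Both strands were read, so that CACGTG counts as 2 matches. In RefSeq windows of 250 bases before the start (GRCm38.p6), 41 members had at least 1 window. Of these, 18 (43.9%) held the core, as did 18.5% of the 27025 genes with a window. A gene counted when any of its windows held the core. Counted by window, it was 41.9% of the 62 member windows and 16.6% of all 32851 windows. The 27025 genes were not limited to the 14837 tested here, whereas all members were tested. Sequences are shown for a member with a window rich in the core, for 2 that moved oppositely in LPS 1d, and for Pdk4, with each match in capitals. Where a member had several windows, the one with the most matches is shown. The windows shown are chr7:46845554-46845803 (plus strand) for Ldha, chr16:17928220-17928469 (minus) for Slc25a1, chr2:11502091-11502340 (minus) for Pfkfb3 and chr6:5496279-5496528 (minus) for Pdk4.
Ldha: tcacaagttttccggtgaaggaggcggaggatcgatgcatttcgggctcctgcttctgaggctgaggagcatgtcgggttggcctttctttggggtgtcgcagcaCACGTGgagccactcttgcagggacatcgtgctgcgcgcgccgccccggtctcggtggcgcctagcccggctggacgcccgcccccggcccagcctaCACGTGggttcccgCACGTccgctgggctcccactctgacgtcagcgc
Slc25a1: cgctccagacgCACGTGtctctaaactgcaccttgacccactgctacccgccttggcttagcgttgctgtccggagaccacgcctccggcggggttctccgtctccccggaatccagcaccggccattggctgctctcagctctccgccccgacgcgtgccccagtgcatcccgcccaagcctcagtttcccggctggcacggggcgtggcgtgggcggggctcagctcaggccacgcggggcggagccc
Pfkfb3: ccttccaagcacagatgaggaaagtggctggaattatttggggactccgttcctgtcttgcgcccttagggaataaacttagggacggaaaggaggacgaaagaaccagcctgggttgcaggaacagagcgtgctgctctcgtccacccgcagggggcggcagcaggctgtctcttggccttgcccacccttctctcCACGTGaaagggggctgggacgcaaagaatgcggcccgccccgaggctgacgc
Pdk4: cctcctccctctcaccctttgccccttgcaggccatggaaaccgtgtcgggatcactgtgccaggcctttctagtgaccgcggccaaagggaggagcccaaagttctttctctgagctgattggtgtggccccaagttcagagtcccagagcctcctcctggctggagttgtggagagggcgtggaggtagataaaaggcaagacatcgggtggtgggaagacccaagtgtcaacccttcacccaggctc
The Ldha window shown held 5 matches to ACGTG, those of Slc25a1 and Pfkfb3 held 2 each and that of Pdk4 held 0. The other Ldha window held 0 matches, and the other Pfkfb3 window held 1. The form GCGTG, which was not counted, occurs in the printed windows of Slc25a1, Pfkfb3 and Pdk4. Among members with a window, 4 of 8 that rose and 6 of 16 that fell in LPS 1d against PBS 1d held the core, as did 8 of 17 that did not pass. In LPS 7d against LPS 1d the core was held by 11 of 22 that were higher, 1 of 6 that were lower and 6 of 13 that did not pass. In LPS 7d against PBS 1d these were 9 of 16, 0 of 5 and 9 of 20. A match describes the letters in the window and is not evidence of binding.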

How the data were processed

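RNA of PVT tissue was sequenced in 9 libraries (TruSeq RNA kit, per the labels' protocols). The submitters' processing notes name TopHat2, HISAT2, HTSeq and GRCm39; versions, roles and the strand setting were not stated there. The deposited table holds raw counts per gene, and the authors scaled them by gene length and library total to FPKM, which recomputation matched within a relative difference of 1.58e-07. The deposited lengths and positions were used as given.

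Counts were fitted with edgeR 4.0.16 (R 4.3.3; filterByExpr, TMM factors 0.983 to 1.03, a mean per group, all 9 libraries, quasi-likelihood test), with p-values adjusted over 14837 genes. The common biological coefficient of variation was 4.15%. The spread used for each gene was drawn toward that of all genes, with a median prior of 43.4 degrees of freedom. The SE is the log2 fold change divided by the square root of F. The test was also run on simulated counts, with far fewer changed genes than here and a single fixed spread for all genes. That run cannot show how the test behaves on these data. Alternatives were DESeq2 1.42.0, other scalings, no filter, a replicate block, autosomal genes, fewer libraries, each library left out, and, added later, a test against a fold of 1.2. Replicate numbers did not pair the samples (correlations of same-numbered deviations -0.053 to 0.023).

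Members, lists, roles and motif were chosen with earlier results of these data known. Members that passed without overlap were ranked by size, and many of them are named with each library's value. Others that also passed without overlap, among them Idh1, Pfkl, Acly, Pkm, Idh3b and Idh3g, are given without those values. Further pathway genes are named when called with a log2 change of at least 0.5. A few such pathway genes are not reported here. Other members are named to account for the whole set. Copies were sought with blastn in GRCm38 transcripts. Promoter windows are from RefSeq (GRCm38.p6). Of the members, 3 had no window.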

Additional observations from a re-analysis of the deposited data

How the results depend on the processing

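No member's direction reversed among its called changes under any alternative. The test against a fold of 1.2, added after seeing the data, left 4 higher and 3 lower in LPS 1d against PBS 1d, 3 higher and 2 lower in LPS 7d against PBS 1d, and 6 higher and 2 lower in LPS 7d against LPS 1d. Under every other alternative the counts stayed within 1.5 times those reported. With each library left out in turn they ran from 7 to 9 higher and 13 to 17 lower in LPS 1d against PBS 1d, from 13 to 16 higher and 5 to 6 lower in LPS 7d against PBS 1d, and from 18 to 25 higher and 6 to 7 lower in LPS 7d against LPS 1d. Of the 25, 22 and 30 calls in these comparisons, 19, 16 and 22 were kept in every alternative other than the test against a fold of 1.2. The replicate numbers share only a number; with a replicate block the counts were 7 higher and 17 lower, 16 and 6, and 19 and 7. Without the third group in the fit they were 7 and 17, 16 and 6, and 27 and 7, and among the 42 autosomal rows 8 and 16, 15 and 6, and 23 and 6. Scaling by library size alone gave 7 and 19, 20 and 4, and 29 and 6. Share differences taken from counts without length scaling moved by more than the spread for Ldha, Slc16a3 and Slc16a7. In LPS 1d against PBS 1d they went from -0.867 to -1.396 points for Ldha and from -10.242 to -13.254 points for Slc16a7. That of Slc16a3 changed sign there, from -0.274 to 0.282 points. In LPS 7d against PBS 1d that of Slc16a7 went from -9.045 to -11.464 points. Low depth limits Hk2, Slc16a3 and the second Aldoa row, all below 8 CPM.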
